A study of Schizosaccharomyces pombe with 6 samples.

Results

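The 6 RNAs described here are SPNCRNA.360, SPNCRNA.362, SPNCRNA.364, SPNCRNA.371, SPNCRNA.372 and SPNCRNA.373, long non-coding RNAs of the outer repeats of centromere 2 in the fission yeast Schizosaccharomyces pombe. They were chosen by identifier, with their values in all 3 strains known, so their levels are given as a description, no p-value is printed for them, and their calls are counted without anything being read from the count. They are 6 of the 7001 features of the deposited table and 6 of its 15 centromeric RNAs on chromosome II. RNA was isolated 2 times from vegetative cells of 3 strains grown in YES medium at 32 °C, a wild-type parent (WT), mug174Δ and red1Δ. In both mutants the named gene was replaced in every cell of the parental strain, and the labels name no other allele. Mug174 is the Coilin ortholog of this yeast, and Coilin is the protein that marks Cajal bodies, which are nuclear condensates for the assembly of RNA and protein complexes. Red1 is a zinc-finger protein of the nuclear machinery that hands meiotic mRNAs to the exosome for degradation. The comparisons asked how the levels of the 6 RNAs differed along the centromere, between its arms and between the strains.

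A fission yeast centromere consists of a central core, where CENP-A replaces histone H3, flanked by innermost repeats and then by outer repeats built of dg and dh elements. The outer repeats are packed into heterochromatin, yet both of their strands are transcribed. Their transcripts are processed by the RNA interference machinery into small RNAs that guide histone methylation back to the repeats, which keeps the level of long transcripts low in wild-type cells. Loss of this silencing is commonly read out as more dg and dh RNA.

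The members occupied a span of 35.2 kb on chromosome II, from position 1606372 to 1641543 (ASM294v3, where the positions of all 6 equal those of the table). The span was an inverted repeat around position 1623941. On the left of this mirror axis lay SPNCRNA.360 (1606372 to 1609066), SPNCRNA.362 (1611106 to 1612940) and SPNCRNA.364 (1613277 to 1614347). To its right lay SPNCRNA.371 (1636393 to 1636776), SPNCRNA.372 (1637171 to 1639664) and SPNCRNA.373 (1640114 to 1641543). All 6 were annotated on the plus strand. The left members are therefore read towards the central core and the right members away from it, so that a left and a right member at the same distance lie on opposite strands of the repeat. None overlapped another feature of the table. RefSeq also lists 18 minus-strand centromeric RNAs on chromosome II, 8 of which overlapped a member, and all 6 members were overlapped in this way. None of these 18 was in the table.

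Folding the right arm onto the left reduced the 6 annotations to 3 stretches of sequence, and no 50-base word was shared between the stretches. SPNCRNA.371, 384 bases long, was the exact reverse complement of the first 384 bases of SPNCRNA.362, whose length was 1835 bases. The ends that face each other in the fold are shown to make this visible, the last 60 bases of one being the first 60 of the other read backwards. They come from II:1611106-1611165 and II:1636717-1636776, both on the plus strand of the RefSeq ASM294v3 sequence.
SPNCRNA.362, bases 1 to 60: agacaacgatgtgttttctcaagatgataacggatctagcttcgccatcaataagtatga
SPNCRNA.371, bases 325 to 384: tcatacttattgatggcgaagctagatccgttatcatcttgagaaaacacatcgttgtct

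SPNCRNA.360 shared 1397 bases with SPNCRNA.373, with 2 differences, and 849 bases with SPNCRNA.372, with none. These 3 form a second stretch. SPNCRNA.364 had an unannotated mirror copy and formed the third. Each member differed from its mirror copy at 0 to 3 bases, which for SPNCRNA.360 were G240A and G797T and for SPNCRNA.362 A1440C, T1506C and G1537A. In these notations the member's base comes first, the position is counted from 1 at the member's 5′ end, and the base of the mirror copy, read as its reverse complement, comes last. The window around G797T, which lies at II:1607148-1607188 with its copy at II:1640694-1640734 inside SPNCRNA.373, shows how little tells the arms apart. Capitals mark the differing base.
SPNCRNA.360, bases 777 to 817: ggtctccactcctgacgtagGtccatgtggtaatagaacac
Mirror copy, reverse complement: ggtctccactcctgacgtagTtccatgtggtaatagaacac

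The primers with which the study measured dg and dh RNA by PCR tie the stretches to named elements, and they are shown because they read the same sequence as the members. Relative to act1 mRNA, the paper reported a significant increase in mug174Δ for dg RNA but not for dh RNA. At both dg and dh it reported significantly less histone H3 methylation in mug174Δ. From the RNA sequencing described here, it named the centromeric transcript SPNCRNA.234 as the most significantly raised. Both dg primers matched SPNCRNA.360 and SPNCRNA.372 exactly. SPNCRNA.373 holds no primer site and is grouped with them by the bases it shares with SPNCRNA.360. SPNCRNA.360, SPNCRNA.372 and SPNCRNA.373 are called the dg members below. Both dh primers matched SPNCRNA.362. SPNCRNA.371 holds no primer site either and is grouped by the bases it shares with SPNCRNA.362. SPNCRNA.362 and SPNCRNA.371 are called the dh members. Each dg primer had 10 exact sites in the genome, 2 of them on chromosome II. The dh forward primer had 4 sites and the reverse primer 6. Only 1 site of the forward primer was on chromosome II (II:1612633-1612652, minus strand), because the capital in its sequence pairs with base 1537 of SPNCRNA.362, at which the mirror copy differs.
dg forward primer: aattgtggtggtgtggtaatac
dg reverse primer: gggttcatcgtttccattcag
dh forward primer: tgaatcgtgtCactcaaccc
dh reverse primer: cgaaactttcagatctcgcc

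Copies also lay outside centromere 2. At 95% identity or more over at least 90% of the length, SPNCRNA.371 had 11 further copies in the genome, SPNCRNA.360 had 9, SPNCRNA.372 had 7, SPNCRNA.373 had 5, SPNCRNA.362 had 4 and SPNCRNA.364 had 3. The copies of SPNCRNA.364 were 2 on chromosome I and its mirror copy on chromosome II, with none on chromosome III. Between 89.7% and 100% of the 100-base words of each member occurred more than once in the genome. The exact mirrored stretch that holds SPNCRNA.371 ran over 3163 bases, so no fragment inside it that is shorter than this can be placed on one arm. The table nevertheless gave SPNCRNA.371 between 9 and 171 reads, so reads with several placements were counted in some way, which the sources used here do not state. The levels of members of 1 stretch, and of the copies on other chromosomes, may hold the same reads and cannot be told apart by arm.

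Strand could not be read from the table either, although the library kit keeps it. None of the 87 features that lie wholly inside a feature of the opposite strand had a read in any library, and neither did any of the 63 inside a feature of the same strand. Of the 1391 other non-coding RNAs, 1340 had reads. A member's value may thus hold RNA of both strands.

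The values are RPKM, reads counted in a feature relative to its length in kb and to all reads counted in the library. The 6 libraries held 16565908 to 18627129 reads, and the members together took between 142 and 1714 of them, so counting error was large at the low levels. The deletions were visible in the counts. In mug174Δ the mug174 gene stood at 0.0321 and 0 RPKM, against 21.5 and 20.1 RPKM in WT. In red1Δ the red1 gene stood at 0.027 and 0.0541 RPKM, against 62.7 and 57.1 RPKM in WT. The median log2 fold change of all 5949 tested features, on the scale of log2(RPKM + 0.5), was 0.18 for mug174Δ against WT and 0.35 for red1Δ against WT. After each library was scaled by its median ratio these medians were 0.01 and 0.00, so members are also given relative to them. In bulk RNA, fewer cells that express an RNA and less RNA per cell cannot be told apart.

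By mean RPKM the members stood at 3.72-fold WT (SPNCRNA.373) to 18.7-fold (SPNCRNA.362) in mug174Δ, with both libraries above both of WT. The share of all features whose libraries stand apart in this way was not counted, so nothing is read from the separation. The dh members stood highest in RPKM, the dg members followed together, and SPNCRNA.364, the member nearest to the core, was lowest. By mean RPKM the fold was 13.5 for SPNCRNA.371, 9.86 for SPNCRNA.364 on 4 WT reads in all, 5.86 for SPNCRNA.360 and 4.94 for SPNCRNA.372. In red1Δ only the dh members and SPNCRNA.364 stood above both WT libraries, at 2.48-fold for SPNCRNA.362, 3.52-fold for SPNCRNA.371 and 4.01-fold for SPNCRNA.364, and the dg members overlapped the WT libraries or lay below them.

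**Figure D1:**
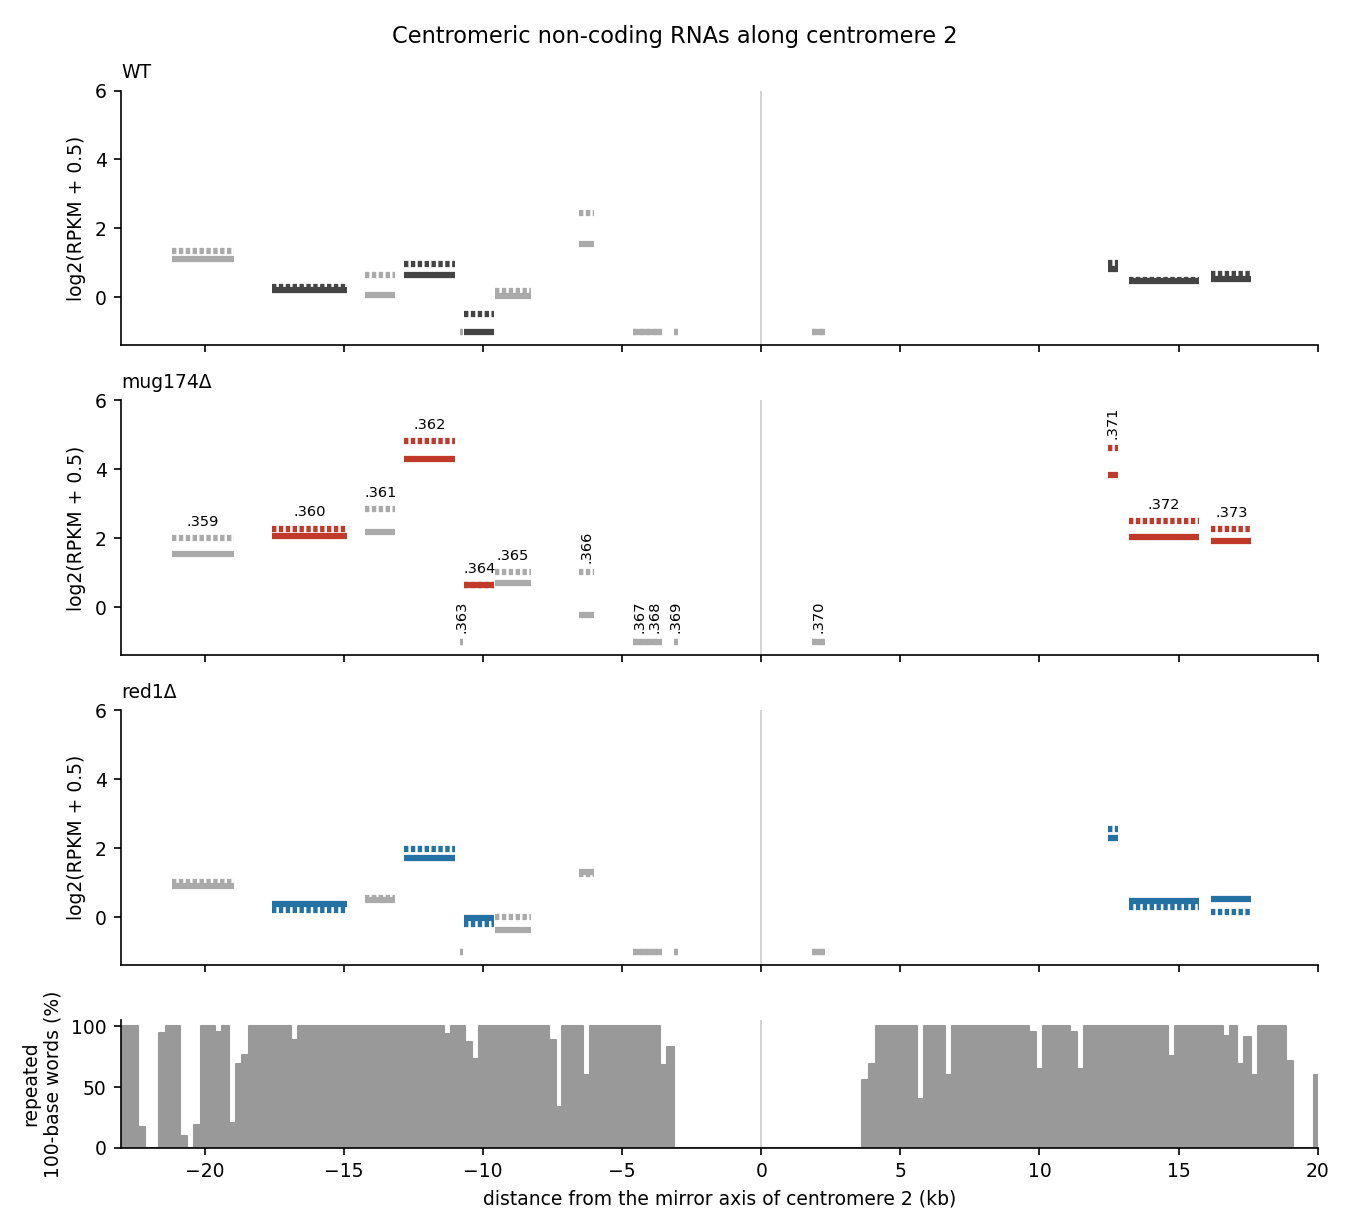
Levels of the 15 centromeric RNAs of chromosome II in the table, as log2(RPKM + 0.5), against distance from the mirror axis in kb, for WT, mug174Δ and red1Δ, with the percentage of repeated 100-base words below. Each bar spans 1 RNA in 1 library (solid, library 1; broken, library 2), members are in colour and other RNAs in grey, and the highest bars in mug174Δ are those of SPNCRNA.362 on the left and SPNCRNA.371 on the right.

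SPNCRNA.362, the dh member of the left arm, stood at 1.07 and 1.44 RPKM in wild-type cells, at 19.3 and 27.7 RPKM with mug174 deleted and at 2.77 and 3.47 RPKM with red1 deleted. The 3 strains did not overlap, with mug174Δ highest and red1Δ between the others. Reads behind these values numbered 36 and 46, then 587 and 948, then 88 and 110, in the same order. The log2 fold change against WT was 3.76 ± 0.24 (SE, 2 libraries a strain) in mug174Δ and 1.04 ± 0.24 in red1Δ, or 3.58 and 0.69 above the medians of all features.

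SPNCRNA.371, which repeats the first bases of SPNCRNA.362 on the right arm, stood at 1.28 and 1.5 RPKM in wild-type cells, at 13.7 and 23.9 RPKM with mug174 deleted and at 4.36 and 5.42 RPKM with red1 deleted. The order of the strains was that of SPNCRNA.362, and again no libraries of different strains overlapped. Its log2 fold change was 3.30 ± 0.29 in mug174Δ and 1.51 ± 0.29 in red1Δ, or 3.12 and 1.16 above the medians. The WT values rested on 9 and 10 reads, with an exact 95% Poisson interval of 0.585 to 2.43 RPKM for the first library and 0.72 to 2.76 RPKM for the second.

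The ratio of SPNCRNA.371 to SPNCRNA.362 differed in order between the strains. The WT libraries gave 1.2 and 1.04, those of mug174Δ 0.708 and 0.862, and those of red1Δ 1.58 and 1.56. The ratio is of RPKM and so accounts for length. It compares 2 annotations with different numbers of copies, not positions within SPNCRNA.362, and rested on 9 and 10 reads of SPNCRNA.371 in WT and on 29 and 36 in red1Δ. In WT the Poisson intervals of SPNCRNA.371 included the values of SPNCRNA.362.

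**Figure D2:**
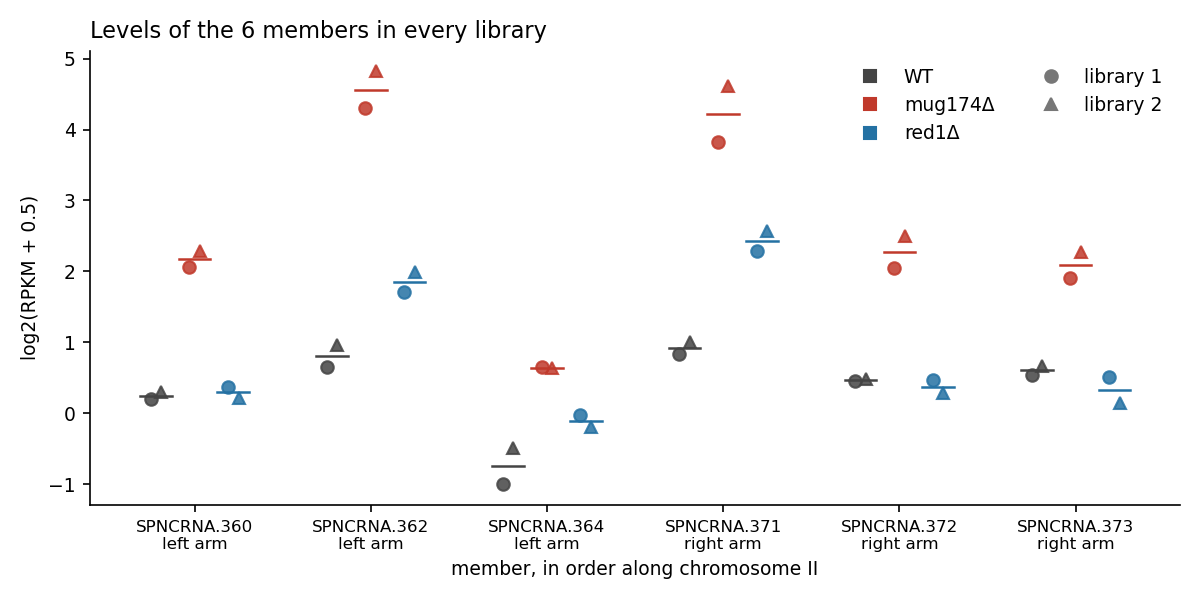
Levels of the 6 members in every library as log2(RPKM + 0.5), in order along chromosome II, with 1 point per library and a line at the mean of each strain. Both mug174Δ libraries lie above both WT libraries for every member, while the red1Δ libraries lie between them for SPNCRNA.362, SPNCRNA.364 and SPNCRNA.371.

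SPNCRNA.360, the dg member farthest left, stood at 0.649 and 0.727 RPKM in wild-type cells, at 3.70 and 4.36 RPKM with mug174 deleted and at 0.793 and 0.665 RPKM with red1 deleted. The red1Δ and WT libraries overlapped. The log2 fold change against WT was 1.93 ± 0.25 in mug174Δ and 0.05 ± 0.25 in red1Δ, or 1.75 above and 0.30 under the medians of all features.

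SPNCRNA.372, the inner dg member of the right arm, stood at 0.876 and 0.901 RPKM in wild-type cells, at 3.63 and 5.14 RPKM with mug174 deleted and at 0.88 and 0.719 RPKM with red1 deleted. WT and red1Δ again overlapped. The log2 fold change was 1.80 ± 0.27 in mug174Δ and -0.10 ± 0.27 in red1Δ, or 1.62 and -0.45 relative to the medians of all features.

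SPNCRNA.373, the outermost member on the right, stood at 0.955 and 1.09 RPKM in wild-type cells, at 3.25 and 4.35 RPKM with mug174 deleted and at 0.929 and 0.607 RPKM with red1 deleted. Both red1Δ libraries lay below both WT libraries, the nearer by less than the counting error of its 23 reads. Its log2 fold change was 1.49 ± 0.28 in mug174Δ and -0.27 ± 0.28 in red1Δ, or 1.31 and -0.62 relative to the medians of all features.

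SPNCRNA.364 was close to the limit of detection. The WT libraries held 0 and 4 of its reads (0 and 0.215 RPKM), those of mug174Δ 19 and 21 (1.07 and 1.05 RPKM), and those of red1Δ 9 and 7 (0.486 and 0.378 RPKM). The count of 0 in the first WT library allows up to 0.153 RPKM, the worth of 3 reads. The strains did not overlap, but the Poisson intervals of the red1Δ libraries, from 0.222 to 0.922 RPKM for the first, overlapped that of the second WT library, from 0.0587 to 0.551 RPKM. The log2 fold change was 1.38 ± 0.35 in mug174Δ and 0.64 ± 0.35 in red1Δ. Relative to the medians of all features it was 1.21 and 0.29, the latter less than its SE. The fold changes depend on the scale. In mug174Δ they ranged from 0.90 with a pseudocount of 1 RPKM through 2.71 with 0.1 RPKM to 3.81 with voom on whole reads, where SPNCRNA.371 stood at 3.66, and in red1Δ voom gave 2.56.

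**Figure D3:**
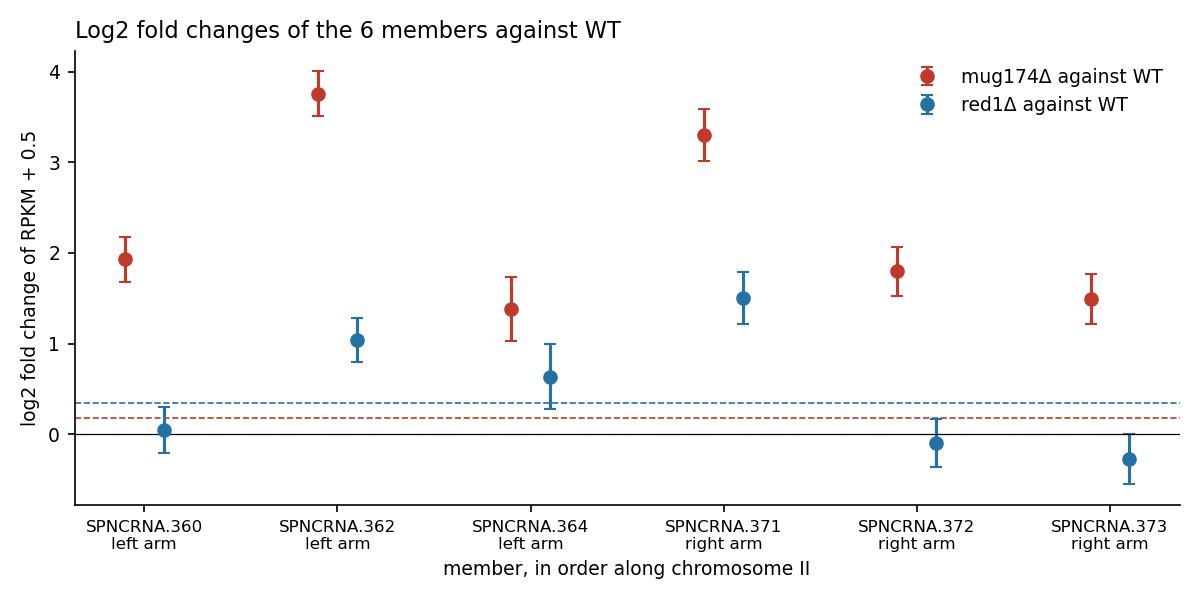
Log2 fold changes of log2(RPKM + 0.5) against WT for the 6 members in order along chromosome II, with SE bars from limma, and dashed lines at the medians of all 5949 tested features (0.18 for mug174Δ and 0.35 for red1Δ). SPNCRNA.362 and SPNCRNA.371 have the highest values in both mutants, and the red1Δ values of the 3 dg members lie below the dashed line.

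At an adjusted p under 0.05 (limma with Benjamini-Hochberg adjustment over all 5949 features), all 6 members were raised in mug174Δ, where 19.8% of all features were raised and 5.53% lowered. In red1Δ 2 members were raised, SPNCRNA.362 and SPNCRNA.371, and none was lowered, where 48.4% of all features were raised and 7.33% lowered. All members but SPNCRNA.364 (5 of 6) differed between red1Δ and mug174Δ and were lower in red1Δ, where 19.4% of all features differed in either direction. The log2 difference of red1Δ against mug174Δ ran from -2.72 ± 0.24 for SPNCRNA.362 to -0.75 ± 0.35 for SPNCRNA.364. The members were chosen with these values known, and nothing is read from the counts. All 6 passed the filter of 1 RPKM in at least 2 libraries. However, SPNCRNA.360, SPNCRNA.364, SPNCRNA.372 and SPNCRNA.373 passed only through their mug174Δ libraries. Among these members, 1 WT library of SPNCRNA.373 was the only library of another strain to reach 1 RPKM. With median ratio scaling SPNCRNA.364 was not called in mug174Δ, which left 5. Leaving out any 1 of the 2 WT and 2 mug174Δ libraries left only SPNCRNA.362 and SPNCRNA.371 raised in mug174Δ. In red1Δ SPNCRNA.371 alone remained raised without WT replicate 1 or without red1Δ replicate 2. For red1Δ against mug174Δ, 2 members differed without mug174Δ replicate 1 and 1 without mug174Δ replicate 2. The median log2 fold change of the 6 was 1.86 in mug174Δ and 0.34 in red1Δ, beside 0.18 and 0.35 over all features.

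The order of levels in WT was SPNCRNA.371, SPNCRNA.362, SPNCRNA.373, SPNCRNA.372, SPNCRNA.360 and SPNCRNA.364, and the library ranges of the first 3 overlapped from each to the next. In mug174Δ it was SPNCRNA.362 and SPNCRNA.371, which overlapped, then SPNCRNA.372, SPNCRNA.360 and SPNCRNA.373, which also overlapped, then SPNCRNA.364. In red1Δ SPNCRNA.371 came first and SPNCRNA.362 second, without overlap, followed by SPNCRNA.372, SPNCRNA.373 and SPNCRNA.360 in overlapping ranges and by SPNCRNA.364. By mean RPKM the dh members thus preceded the dg members in every strain, and SPNCRNA.364 was last. In WT, however, the libraries of SPNCRNA.362 and the dg member SPNCRNA.373 overlapped. The second mug174Δ library was higher than the first by 1.18 to 1.75 times, except for SPNCRNA.364, which was level at 0.983 times. The second WT library was higher than the first for every member, and the second red1Δ library for the dh members only. These differences between libraries were not counted over all features, so they are not read as a trait of the members.

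**Figure D4:**
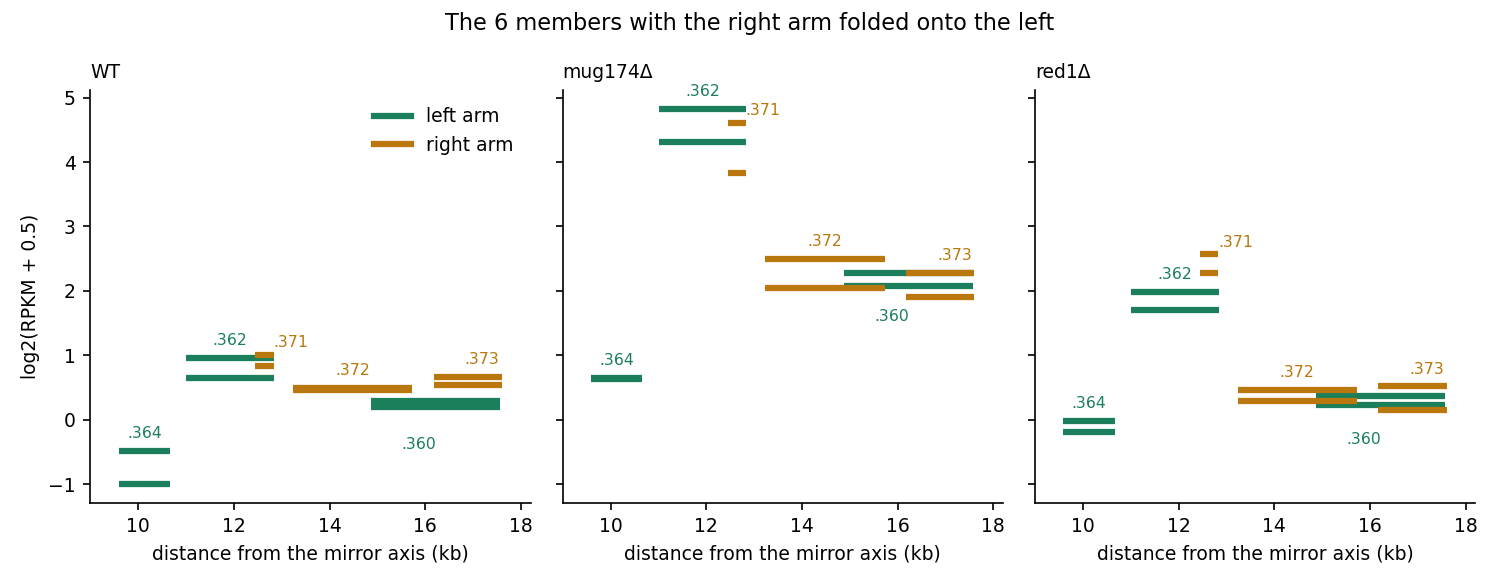
Levels of the 6 members as log2(RPKM + 0.5) against distance from the mirror axis in kb, with the right arm folded onto the left, for WT, mug174Δ and red1Δ. Each member has 2 bars, 1 per library, which span its length, and left and right members at the same distance carry the same sequence on opposite strands.

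The fold pairs members that share sequence across the arms. The exact pair, SPNCRNA.371 and SPNCRNA.362, had the ratios of 0.708 to 1.58 given above, and their red1Δ libraries did not overlap. SPNCRNA.360 and SPNCRNA.372, which overlap in the fold, stood at a ratio of 0.74 to 1.02 over the 6 libraries. SPNCRNA.360 and SPNCRNA.373, which share nearly the whole of SPNCRNA.373, stood at 0.679 and 0.668 in WT and at 1.14 and 1.002 in mug174Δ. Ordered by distance from the axis, the level in mug174Δ was low at SPNCRNA.364, centred 10.1 kb from the axis, high at SPNCRNA.362 (11.9 kb) and SPNCRNA.371 (12.6 kb), and lower at SPNCRNA.372 (14.5 kb), SPNCRNA.360 (16.2 kb) and SPNCRNA.373 (16.9 kb). SPNCRNA.362 stood at 5.22 and 6.36 times SPNCRNA.360 in mug174Δ, at 3.49 and 5.21 times in red1Δ and at 1.65 and 1.99 times in WT.

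Summed by stretch, the dg members stood at 0.80 and 0.871 RPKM in wild-type cells, 3.58 and 4.66 RPKM with mug174 deleted and 0.855 and 0.673 RPKM with red1 deleted. Those of dh stood at 1.11 and 1.46 RPKM in wild-type cells, 18.3 and 27.1 RPKM with mug174 deleted and 3.05 and 3.81 RPKM with red1 deleted. In mug174Δ the dg members thus stood at 4.93 times WT and the dh members at 17.7 times. The paper's PCR found a significant increase for dg RNA but not for dh RNA, and its text gives no fold sizes to compare. The PCR primers match copies on other chromosomes, and the members' values may also hold reads of such copies. Why the measures differ was not tested. The dh members gave 31.7% (95% Wilson interval 24.6 to 39.7) and 35% (28.0 to 42.7) of all reads of the members in WT. In mug174Δ their share was 62.1% (59.2 to 65.0) and 65.3% (63.0 to 67.5), and in red1Δ 52.2% (45.7 to 58.7) and 63.5% (57.1 to 69.4). In both libraries of each mutant the dh share was higher than in both WT libraries. These intervals cover counting error only. They treat reads as independent and would be too narrow where a read was counted at several placements. The difference in share was not tested, since the members were chosen with their values known.

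By arm, the left members gave 47.9% (39.8 to 56.1) and 52.5% (44.8 to 60.1) of the members' reads in WT. In mug174Δ they gave 71.1% (68.3 to 73.7) and 69.3% (67.1 to 71.5), and in red1Δ 59.8% (53.3 to 66.0) and 64.3% (58.0 to 70.3). The annotation is not balanced between the arms, since the dh member of the left arm is 1835 bases long and that of the right arm 384. The share of an arm therefore follows that of the dh members and does not measure transcription of the arm.

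Of the other RNAs between the first and the last member, nam6 (SPNCRNA.361, 1609703 to 1610790) carries dg sequence, and 1009 of its 1088 bases are an exact reverse complement of part of SPNCRNA.372. It stood at 0.552 and 1.06 RPKM in wild-type cells, 3.99 and 6.71 RPKM with mug174 deleted and 0.903 and 0.957 RPKM with red1 deleted. Both mug174Δ libraries were above all others, and the red1Δ libraries lay within the WT range. Its log2 fold change was 2.15 ± 0.34 in mug174Δ (adjusted p = 0.0121, limma) and 0.16 ± 0.34 in red1Δ (adjusted p = 0.706). It passed the filter only through its mug174Δ libraries, since 1 WT library alone of the other strains reached 1 RPKM. The call in mug174Δ was lost when either WT library or either mug174Δ library was left out, with adjusted p between 0.0637 and 0.083. The direction in red1Δ turned to -0.07 with median ratio scaling.

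Nearer to the core levels were mixed. SPNCRNA.365 (1614384 to 1615655), beside SPNCRNA.364, stood at 0.515 and 0.634 RPKM in wild-type cells, 1.14 and 1.52 RPKM with mug174 deleted and 0.273 and 0.50 RPKM with red1 deleted. Its log2 fold change of 0.76 ± 0.32 in mug174Δ did not pass the test (adjusted p = 0.128). Like nam6, SPNCRNA.365 passed the filter only through its mug174Δ libraries. SPNCRNA.366 (1617399 to 1617921) was higher than every member in WT, with 2.40 and 4.96 RPKM in wild-type cells, 0.346 and 1.54 RPKM with mug174 deleted and 1.99 and 1.88 RPKM with red1 deleted, and did not pass either (log2 fold change -1.60 ± 0.50, adjusted p = 0.0628). SPNCRNA.363 and SPNCRNA.367 to SPNCRNA.370 were listed at 0 reads in all 6 libraries. All of SPNCRNA.367 and SPNCRNA.368 is repeated in the genome and none of SPNCRNA.369 and SPNCRNA.370, in words of 100 bases, so both kinds were at 0.

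Within 20 kb on either side of the members' span the table held 49 other features, of which 16 passed the filter, among them 11 coding genes. In mug174Δ 4 rose (25.0%, against 19.8% of all features) and 2 fell, and in red1Δ 7 rose (43.8%, against 48.4%) and 1 fell. With median ratio scaling the split was 2 raised and 3 lowered in mug174Δ and 1 raised and 3 lowered in red1Δ, where over all features it was 581 and 601 in mug174Δ and 1075 and 1132 in red1Δ. Of the 49, 27 were tRNA genes, none of which passed the filter. No coding gene of the flanks changed as much as the dh members did in mug174Δ. The gene with the smallest p in mug174Δ beside nam6 was SPBC21B10.07, which stood at 50.6 and 63.6 RPKM in wild-type cells, 92.6 and 110.3 RPKM with mug174 deleted and 87.0 and 96.5 RPKM with red1 deleted (log2 fold change 0.83 ± 0.14, adjusted p = 0.0152, and 0.69 ± 0.14, adjusted p = 0.0107). Its red1Δ call was lost with median ratio scaling (0.33, adjusted p = 0.119). SPBC21B10.08c rose by 0.45 ± 0.09 in mug174Δ (adjusted p = 0.0176) and by 0.41 ± 0.09 in red1Δ (adjusted p = 0.0107), which is 0.27 and 0.05 above the medians of all features, and neither call held with median ratio scaling (adjusted p = 0.113 and 0.774). The gene of ribosomal protein S4, rps402, fell by 0.71 ± 0.16 in mug174Δ (adjusted p = 0.0253) and by 0.67 ± 0.16 in red1Δ (adjusted p = 0.0143). The high mobility group gene hmo1 fell by 0.44 ± 0.09 in mug174Δ (adjusted p = 0.0234), and the meiotic recombination gene rec6 rose by 0.96 ± 0.15 in red1Δ (adjusted p = 0.00471). Without any 1 of the WT or mug174Δ libraries none of the 6 mug174Δ calls was left.

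The centromeric RNAs of other chromosomes were compared to see whether the dg and dh sequence on chromosome II stood apart. The table held 11, 6 of which passed the filter. In mug174Δ 4 rose, all from centromere 1, and the call of each held under every alternative tried. SPNCRNA.234 stood at 0.794 and 0.894 RPKM in wild-type cells, 30.7 and 43.9 RPKM with mug174 deleted and 2.07 and 1.74 RPKM with red1 deleted, and 82.6% of its 50-base words occurred in the dh members. Against WT it rose by 4.79 ± 0.23 on the log2 scale in mug174Δ (adjusted p = 0.00171, limma). SPNCRNA.232, with 11.8% of its words in the dh members, rose by 3.31 ± 0.27 (adjusted p = 0.00402). The other 2 carry dg sequence, nam5 with 84.2% of its words and SPNCRNA.231 with 60.6%, and rose by 4.13 ± 0.25 (adjusted p = 0.00262) and 3.93 ± 0.20 (adjusted p = 0.00182). The dg members of centromere 2 did not come near this size, their values being 1.49 to 1.93. The difference was not tested because the members were chosen with their values known.

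**Figure D5:**
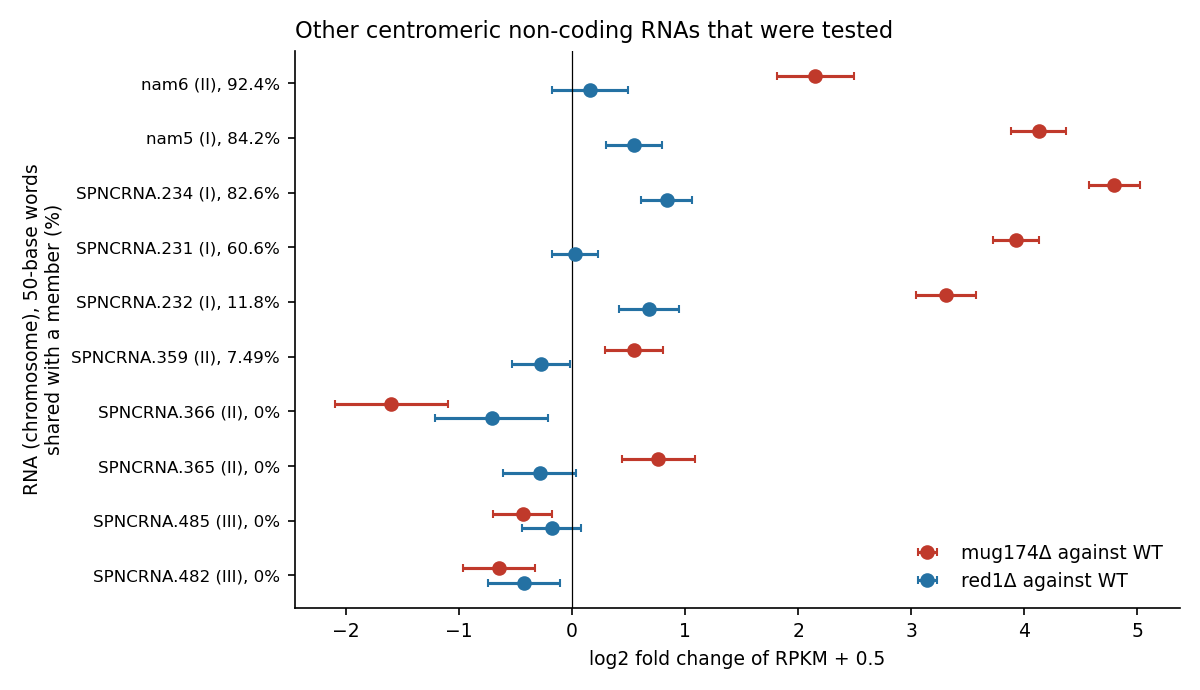
Log2 fold changes of log2(RPKM + 0.5) against WT, with SE bars from limma, for the 10 other centromeric RNAs that were tested, ordered by the percentage of their 50-base words that occur in a member. The 5 with the highest percentages, from 11.8 to 92.4, lie above 2 in mug174Δ, and the 5 with 0 to 7.49 lie below 1. Within the upper 5 the values do not follow the percentage, with nam6 (92.4%) at 2.15 and SPNCRNA.232 (11.8%) at 3.31.

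SPNCRNA.482 and SPNCRNA.485 of centromere 3 shared no word with a member. SPNCRNA.482 stood at 3.33 and 2.11 RPKM in wild-type cells, against 1.23 and 1.85 RPKM with mug174 deleted (log2 fold change -0.65 ± 0.32, adjusted p = 0.174). SPNCRNA.485 stood at 2.51 and 1.73 RPKM in wild-type cells, against 1.33 and 1.5 RPKM with mug174 deleted (-0.44 ± 0.26, adjusted p = 0.251). SPNCRNA.483 and SPNCRNA.484 of the same centromere had at most 1.03 and 1.02 RPKM in any library and were not tested. In red1Δ SPNCRNA.234 rose by 0.84 ± 0.23 (adjusted p = 0.0231), and the call was lost without either WT library, without red1Δ replicate 1, with median ratio scaling, with voom weights and in a fit of WT and red1Δ alone, with adjusted p up to 0.147. The red1Δ values of the others were 0.68 ± 0.27 for SPNCRNA.232 (adjusted p = 0.0692), 0.55 ± 0.25 for nam5 (adjusted p = 0.102) and 0.03 ± 0.20 for SPNCRNA.231 (adjusted p = 0.913). Reads shared between these RNAs and the members cannot be told apart.

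The features whose profile over the 6 libraries was most like the mean profile of the members were sought among 5943 tested non-member features. The measure was the root mean square distance between profiles of log2(RPKM + 0.5), each centred on its WT mean. The nearest was nam6 (distance 0.241, against a median of 1.26 over all features), followed by IRC1-L (0.331), SPNCRNA.322 (0.433), SPNCRNA.1190 (0.449) and IRC1-R (0.454). Most of the sequence of nam6 is shared with the dg members and it may hold the same reads, so nothing is read from its place. IRC1-L and IRC1-R (SPNCRNA.84 and SPNCRNA.95) come from the inverted repeats that border centromere 1. IRC1-L stood at 1.54 and 1.73 RPKM in wild-type cells, 8.15 and 8.36 RPKM with mug174 deleted and 4.12 and 3.15 RPKM with red1 deleted. IRC1-R stood at 2.19 and 1.89 RPKM in wild-type cells, 8.14 and 7.04 RPKM with mug174 deleted and 4.63 and 2.95 RPKM with red1 deleted. Both were thus higher in red1Δ than in WT, as the dh members and, without a call, SPNCRNA.364 were and the dg members were not. SPNCRNA.322, from the left arm of chromosome II, stood at 9.88 and 10.4 RPKM in wild-type cells. It stood at 32.2 and 32.1 RPKM with mug174 deleted and at 11.0 and 15.6 RPKM with red1 deleted. SPNCRNA.1190 of chromosome III stood at 2.74 and 3.20 RPKM in wild-type cells. Its levels were 10.9 and 9.09 RPKM with mug174 deleted and 5.31 and 4.79 RPKM with red1 deleted. These RNAs from outside the centromeres were thus also higher in red1Δ than in WT.

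Genes of the machinery that silences outer repeats were measured in the same libraries. Of 30 listed genes, 28 were tested. In mug174Δ 11 rose (39.3%, against 19.8% of all features) and 1 fell, and in red1Δ 20 rose (71.4%, against 48.4%) and 1 fell, the latter being red1 itself, which is deleted there. The median log2 fold change of the list was 0.28 in mug174Δ and 0.48 in red1Δ, beside 0.18 and 0.35 over all features. With median ratio scaling 5 rose and 1 fell in mug174Δ and 8 rose and 3 fell in red1Δ, and without any 1 WT or mug174Δ library none was called in mug174Δ. Of 11 RNA interference genes tested, 5 rose in mug174Δ and 10 in red1Δ. Among the named genes other than red1 the largest change in both mutants was that of rdp1, the RNA-dependent RNA polymerase, at 28.0 and 24.6 RPKM in wild-type cells, 50.3 and 43.4 RPKM with mug174 deleted and 56.3 and 66.3 RPKM with red1 deleted. It rose by 0.82 ± 0.13 on the log2 scale in mug174Δ (adjusted p = 0.0123) and by 1.203 ± 0.13 in red1Δ (adjusted p = 0.00217). The gene of red1 rose by 0.59 ± 0.14 in mug174Δ (adjusted p = 0.0292, and 0.0677 with median ratio scaling). The other named genes that rose in both mutants were hrr1, a helicase of the polymerase complex (0.64 and 0.83), ers1, an RNA interference factor (0.49, not called with median ratio scaling, and 0.92), chp2, an HP1 protein (0.59 and 1.13), and mmi1, which binds meiotic mRNAs (0.67 and 0.84). The single gene that fell in mug174Δ was swi6, the other HP1 protein (-0.40, adjusted p = 0.0157), named after its value was seen. No gene of the list other than the deleted red1 changed as much as the dh members did in mug174Δ.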

How the data were processed

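Reads per feature were deposited by the authors as RPKM, divided by feature length and by the reads counted in the library, without scaling between libraries. The paper describes poly(dT) enrichment, HISAT2 and ASM294v2, whereas the labels give rRNA depletion with a directional kit and, in the submitters' processing notes, StringTie 1.3.1c, STAR 2.5.3a and FastQC 0.11.6. For the counter, its strand setting and its treatment of reads with several placements, the sources used here give nothing. Deposited by the authors as well, their own fold change and p-value columns were not used.

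RPKM was turned back into reads, which came out whole within 0.01 reads for 100% of values. Limma 3.58.1 (R 4.3.3) was fitted to log2(RPKM + 0.5) with 1 mean per strain over all 6 libraries and eBayes with a trend, 2-sided, and p-values were adjusted (Benjamini-Hochberg) across 5949 features that reached 1 RPKM in 2 libraries or more. The script was tested on simulated data. With 2 libraries a strain, p-values measure only the spread between these libraries, said to be biological replicates. Coordinates, copies (blastn) and words were read from RefSeq ASM294v3, where 1420 of 1430 matched non-coding RNAs have the table's positions. Centromeric RNAs were taken from RefSeq product names.

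The members and the lists were chosen with earlier results of these data known. Named were all members, the RNAs between them, in each list the 4 features with the smallest p in each mutant (other centromeric RNAs, the 8 highest), and the 5 features most alike. The silencing list held RNA interference, CLRC and HP1, SHREC, RNA elimination and CENP-A genes. Alternatives were other pseudocounts and filters, median ratio scaling, eBayes without a trend, a replicate block, voom on whole reads, a fit of the 2 strains compared, and leaving out each library.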

Additional observations from a re-analysis of the deposited data

How the results depend on the processing

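The 6 members kept the direction of their mug174Δ fold change under every alternative, and the dh members that of red1Δ, from 0.76 to 1.31 for SPNCRNA.362 and from 1.21 to 1.76 for SPNCRNA.371. The direction of SPNCRNA.360 in red1Δ was not stable, from -0.16 with median ratio scaling to 0.12 without red1Δ replicate 2. With the filter at 5 RPKM, which leaves only the dh members testable, 2 members were raised in mug174Δ and 2 differed between the mutants. With median ratio scaling 5 members were raised in mug174Δ, 4 other features of the region and 11 silencing genes were called in red1Δ (1 and 8 of them raised), 6 silencing genes were called in mug174Δ (5 raised), and 0 centromeric RNAs of other chromosomes were raised in red1Δ, as with voom (0) and in a fit of the 2 strains (0). Without a filter 11 other features of the region were called in mug174Δ. In red1Δ 5 were called with eBayes without a trend and 5 in the fit of the 2 strains.

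Replicate numbers may mark a weak pairing of the libraries, since the replicate differences correlated positively across features (0.19, 0.23 and 0.063 for the 3 pairs of strains). With the number as a replicate block, 2 centromeric RNAs of other chromosomes were raised in red1Δ in place of 1, and 6, 2 and 5 members were called in the 3 comparisons, as without it.

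Leaving out 1 library at a time, where the lone library is assumed to vary like the others, gave 2 to 6 members raised in mug174Δ, 1 to 2 in red1Δ and 1 to 5 different between the mutants. It gave 0 to 8 and 2 to 9 other features of the region, 4 to 4 and 0 to 2 raised centromeric RNAs of other chromosomes, and 0 to 14 and 13 to 21 silencing genes in mug174Δ and red1Δ. Fewer libraries leave fewer degrees of freedom. Depth limits SPNCRNA.364 most, with 0 to 21 reads, and then SPNCRNA.371 in WT.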
